A study of Homo sapiens with 12 samples.

Results

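The plasminogen activators, their receptor and a group of related protease inhibitors were examined in MCF10A cells with and without p53. The set was chosen by gene symbol, with earlier results of these data known. It holds 7 of the 22328 entries of the expression table. These are the activators PLAU and PLAT, the receptor PLAUR, and the serpins SERPINE2, SERPINB1, SERPINB2 and SERPINB5. MCF10A is an immortalized, non-tumorigenic human mammary epithelial line, and p53 is a transcription factor and tumor suppressor. RNA-seq was carried out on 12 libraries, 4 each of wild-type (WT) cells, the p53_KO clones KO313 and KO414. Each clone was grown from a single cell after CRISPR-Cas9 editing with its own pair of guide RNAs, and the methods describe the 4 libraries of a group as biological repeats. All groups shared the same DMEM/F12 medium with horse serum, insulin, EGF, hydrocortisone, cholera toxin and antibiotics, and no other drug or stress is named. Because the WT cells were not carried through the same editing and cloning, loss of p53 and the history of a clone cannot be told apart for a single gene.

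Plasmin is a broad serine protease that dissolves fibrin and cleaves matrix proteins. It is cut from plasminogen by urokinase (uPA, the product of PLAU) or by tissue plasminogen activator (tPA, the product of PLAT), and the uPA receptor (uPAR, the product of PLAUR) holds uPA at the cell surface. Serpins are suicide substrates that trap serine proteases. SERPINE2 (protease nexin 1) and SERPINB2 (PAI-2) block plasminogen activators, SERPINB1 blocks neutrophil proteases, and SERPINB5 (maspin) is a mammary epithelial serpin that does not inhibit proteases in the classical way.

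Expression was given as RPKM (reads scaled to gene length in kilobases and to the size of the library). The paper describes its RNA-seq as biased toward the 3′ end of transcripts, so comparisons of RPKM between genes of different length are approximate. Between 15600 and 16641 genes were above 0 in a library. The p53 target CDKN1A had a mean of 249 RPKM in WT, while its means in KO313 and KO414 were 29.5 and 31.9. The 8 basal mammary markers examined were all above 0. Their summed RPKM, mostly KRT5 and KRT17, was 1705 to 1942 in WT, 1279 to 1399 in KO313 and 1153 to 1246 in KO414. Summed luminal markers (8 genes, mostly KRT8 and KRT18) lay between 220.1 and 280.6 RPKM in all groups. PGR was at 0, and ELF5 and KRT19 were near 0. The means in WT, KO313 and KO414 were 79.3, 71.3 and 60.2 RPKM for KRT8 and 146.0, 161.4 and 177.9 for KRT18. Markers of other cell types were low: 8 fibroblast genes summed to at most 4.32 RPKM, mostly PDGFRA with COL1A2, COL3A1 and LUM at or near 0, and 4 endothelial genes to at most 0.0516, and of 6 immune genes, which summed to at most 2.58, the leukocyte marker PTPRC did not exceed 0.0272.

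In p53_KO cells, PLAU, PLAUR and SERPINE2 were higher than in WT, and PLAT, SERPINB1, SERPINB2 and SERPINB5 were lower. The changes in mean RPKM ran from 1.15-fold (SERPINB1) to 2.12-fold (SERPINB2). All 7 genes passed the filter on low values and were tested with limma on log2(RPKM + 0.5), with p-values adjusted by the Benjamini-Hochberg method over 12215 genes. With an adjusted p under 0.05 as the threshold, 7 of the 7 passed in p53 KO against WT, where 29.6% of all tested genes passed. Of these 3 were higher (15.6% of all tested genes) and 4 lower (14.0%). The median absolute log2 difference was 0.63 for the 7 genes and 0.13 for all tested genes. For 6 of the 7 the WT and p53_KO libraries did not overlap, against 19.0% of all tested genes, and SERPINE2 was the exception. The 7 genes were chosen with earlier results of these data known. An excess over all tested genes, here or for the single clones below, may come from that choice, so no conclusion is drawn from it. The 8 p53_KO libraries come from only 2 clones, so the p-values describe spread between these libraries. In a bulk culture, fewer cells that express a gene and less RNA of it per cell cannot be told apart.

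**Figure D1:**
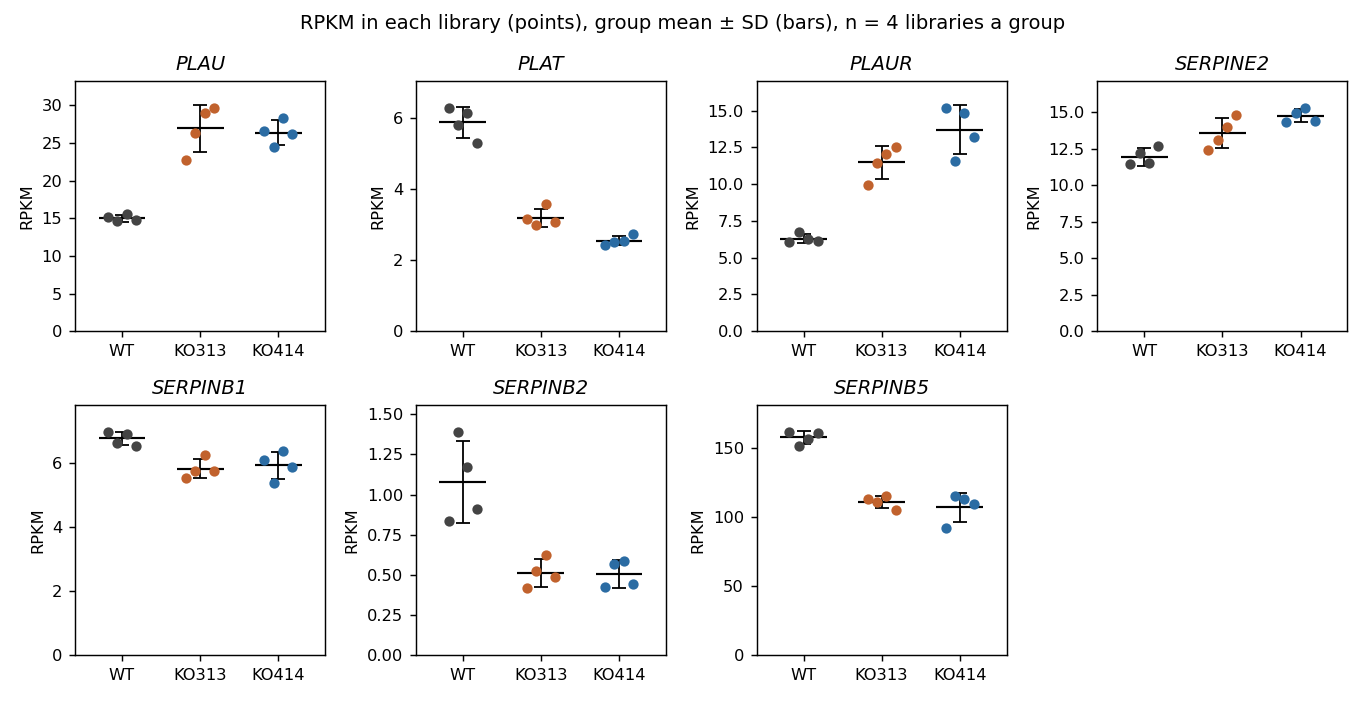
RPKM (y axes, from 0) of the 7 genes in each library of WT, KO313 and KO414 (x axes). Points are libraries, long bars are group means and error bars are SD over 4 libraries; PLAU and PLAUR sit higher in every p53_KO library, and PLAT and SERPINB5 sit lower.

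PLAU, which encodes urokinase, had the higher RPKM of the activators in every group. It was at 15.1, 14.6, 15.6 and 14.7 RPKM in the WT libraries. It was at 22.8, 26.3, 29.0 and 29.7 RPKM in KO313 and at 26.6, 24.4, 28.4 and 26.2 in KO414. Every p53_KO library was thus above every WT library, and the clones overlapped each other. The mean rose from 15.0 ± 0.460 RPKM (SD, n = 4) to 26.7 ± 2.31 (SD, n = 8), a 1.78-fold change, with a log2 difference of 0.80 (SE 0.064, limma adjusted p = 5.87e-07).

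PLAT, which encodes tissue plasminogen activator, moved the other way. The WT libraries were at 6.30, 5.83, 6.15 and 5.32 RPKM. KO313 had 3.17, 2.98, 3.58 and 3.07 RPKM, and KO414 had 2.43, 2.51, 2.53 and 2.75. All p53_KO libraries were below all WT libraries, and all KO414 libraries were below all KO313 libraries. The mean was 5.90 ± 0.436 RPKM in WT (SD, n = 4) and 2.88 ± 0.393 in p53_KO (SD, n = 8), or 2.05-fold lower. On the log2 scale PLAT fell by 0.93 (SE 0.087, limma adjusted p = 3.27e-06).

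PLAUR encodes the GPI-anchored receptor that concentrates urokinase on the cell surface. Its RPKM was 6.05, 6.72, 6.24 and 6.13 in WT, 9.94, 11.5, 12.03 and 12.6 in KO313, and 15.2, 11.6, 14.8 and 13.2 in KO414. The highest WT library was below the lowest p53_KO library, and KO414 reached further up than KO313, with overlap. The mean rose 2.00-fold, from 6.29 ± 0.299 RPKM (SD, n = 4) to 12.6 ± 1.76 (SD, n = 8), and the log2 difference was 0.94 (SE 0.093, limma adjusted p = 5.69e-06). The urokinase gene and its receptor gene were therefore both higher in the same 8 libraries.

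The promoter of PLAUR is shown because it carries a full match to the consensus of AP-1, the dimer of Jun and Fos proteins that binds many stress and growth factor responsive genes. The window holds the 250 bases before the start site in RefSeq (GRCh38.p14, chr19:43670170-43670419, minus strand, printed 5′ to 3′ along the gene), with the match at positions -186 to -180 from the start site in capitals.
PLAUR promoter: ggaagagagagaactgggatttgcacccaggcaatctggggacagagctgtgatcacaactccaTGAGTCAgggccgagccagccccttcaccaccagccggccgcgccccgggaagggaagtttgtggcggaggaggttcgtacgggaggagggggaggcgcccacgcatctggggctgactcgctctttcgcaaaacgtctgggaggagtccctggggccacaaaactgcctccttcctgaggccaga
The search used TGANTCA on both strands, whose middle letter is C or G in the AP-1 consensus. Of 35116 promoter windows of the same length, 6.57% held a match. Windows were found for 6 of the 7 genes, 8 in all, and those of PLAU, SERPINE2 and SERPINB1 held none. The p53-binding decamer consensus had no exact match in any of the 8 windows, against 5.57% of all windows. With 1 letter off allowed, 6 of the 8 windows held a match, all but the pair of SERPINE2, against 57.5% of all windows. These are matches of letters only.

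SERPINE2 encodes protease nexin 1, a secreted inhibitor of urokinase, thrombin and plasmin. Its levels were 11.4, 12.2, 11.5 and 12.7 RPKM in WT, 12.4, 13.1, 14.0 and 14.8 in KO313, and 14.4, 14.9, 15.3 and 14.4 in KO414. KO414 lay wholly above WT, whereas the lowest KO313 library was below the highest WT library. From 11.95 ± 0.601 RPKM (SD, n = 4) the mean rose to 14.2 ± 0.980 (SD, n = 8), only 1.18-fold, with a log2 difference of 0.23 (SE 0.057, limma adjusted p = 0.00745). Against WT alone, KO414 passed (log2 difference 0.29, limma adjusted p = 0.00239) and KO313 did not (0.17, 95% interval 0.05 to 0.30, limma adjusted p = 0.0530). KO313 passed without KO313 replicate 1 (limma adjusted p = 0.0238) or without KO414 replicate 1 (limma adjusted p = 0.0371).

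The clade B serpins of the set, which act largely inside cells, were all lower in p53_KO cells. SERPINB5 (maspin) was the most abundant of the 7 genes, at 161.7, 151.4, 156.6 and 160.8 RPKM in WT. It was at 112.7, 110.6, 114.8 and 105.0 RPKM in KO313 and at 91.7, 114.8, 112.5 and 109.1 in KO414. No p53_KO library reached the WT range, and KO414 replicate 1 was the lowest of all. The mean was 157.6 ± 4.72 RPKM (SD, n = 4) in WT and 108.9 ± 7.67 (SD, n = 8) in p53_KO, 1.45-fold lower, and on the log2 scale it fell by 0.53 (SE 0.057, limma adjusted p = 1.06e-05).

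SERPINB2 (PAI-2), an inhibitor of urokinase that is mostly retained in the cell, was the least abundant of the 7. It was at 0.834, 1.39, 1.17 and 0.908 RPKM in WT, 0.417, 0.521, 0.625 and 0.484 in KO313, and 0.424, 0.565, 0.588 and 0.439 in KO414. The groups WT and p53_KO did not overlap, and the clones covered nearly the same range. The mean was 1.08 ± 0.256 RPKM (SD, n = 4) in WT and 0.508 ± 0.0796 (SD, n = 8) in p53_KO, 2.12-fold lower. On the log2(RPKM + 0.5) scale, which understates changes of low genes, SERPINB2 fell by 0.63 (SE 0.096, limma adjusted p = 0.000258). These values rest on 56 to 187 scaled reads per library, the fewest of the set.

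The promoters of SERPINB5 and SERPINB2 are shown because these genes of the same serpin cluster on chromosome 18 fell together and share a near match to the AP-1 consensus, TGAATCA (in capitals), with A in the middle. The 6.57% of windows given above is for any middle letter, and the share for TGAATCA alone was not counted. Both windows are the 250 bases before the start site on the plus strand in RefSeq (GRCh38.p14). The SERPINB5 window is chr18:63476708-63476957 with the match at -146 to -140, and the SERPINB2 window is chr18:63887455-63887704 with the match at -102 to -96. The other capitals, in SERPINB2, mark TATAAA at -30 to -25, letters that 6.80% of the 35116 windows held on the gene's strand.
SERPINB5 promoter: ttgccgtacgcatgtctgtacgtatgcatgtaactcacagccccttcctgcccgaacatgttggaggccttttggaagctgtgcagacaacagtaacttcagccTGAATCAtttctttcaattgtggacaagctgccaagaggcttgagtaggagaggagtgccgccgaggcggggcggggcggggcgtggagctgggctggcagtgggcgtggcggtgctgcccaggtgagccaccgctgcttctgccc
SERPINB2 promoter: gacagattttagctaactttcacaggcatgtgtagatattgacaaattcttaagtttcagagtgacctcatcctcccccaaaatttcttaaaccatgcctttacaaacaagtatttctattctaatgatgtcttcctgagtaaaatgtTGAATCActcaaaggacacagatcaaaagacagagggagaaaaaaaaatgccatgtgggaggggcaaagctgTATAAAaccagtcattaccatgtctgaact
In small letters both windows also hold p53-binding decamers with 1 letter off, as 57.5% of all windows did with at most 1 letter off. In SERPINB5 they are at -243 to -234, -197 to -188 and -125 to -116. In SERPINB2 they are at -227 to -218, -160 to -151 and -146 to -137. The windows differed in base composition, with a GC content of 60.0% in SERPINB5 and 37.2% in SERPINB2. The PLAUR window above, from a gene that rose, held the search pattern as TGAGTCA, the full match. A link between either form and the changes was not tested.

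SERPINB1, an inhibitor of neutrophil elastase and cathepsin G, showed the smallest change. It was at 6.97, 6.61, 6.90 and 6.52 RPKM in WT, 5.51, 5.73, 6.22 and 5.74 in KO313, and 6.09, 5.37, 6.36 and 5.87 in KO414. The lowest WT library was just above the highest p53_KO library. The mean was 6.75 ± 0.217 RPKM (SD, n = 4) in WT and 5.86 ± 0.343 (SD, n = 8) in p53_KO, 1.15-fold lower, and it fell by 0.19 on the log2 scale (SE 0.050, limma adjusted p = 0.0116). The genes of its usual targets, ELANE and CTSG, were listed at 0 in all 12 libraries.

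The clones were then set against WT separately, with the same 4 WT libraries in both comparisons. In KO313, 6 of the 7 genes passed (all but SERPINE2), against 21.5% of all tested genes, and in KO414 7 of 7 passed, against 29.8%. The log2 differences in KO313 and KO414 were 0.82 and 0.79 for PLAU, 0.82 and 1.06 for PLAUR, and -0.79 and -1.06 for PLAT. The libraries of a clone and of WT did not overlap for 6 of 7 genes in KO313 (29.6% of all tested genes) and for 7 of 7 in KO414 (27.9%). For the clade B serpins the log2 differences were -0.51 and -0.56 for SERPINB5, -0.63 and -0.64 for SERPINB2, and -0.20 and -0.18 for SERPINB1. The study asked for a fold change of 2 in DESeq2. Here that fold was asked of the limma fit on log2(RPKM + 0.5), which understates changes of low genes. With the adjusted p and this fold, PLAUR and PLAT passed in KO414 (2 of 7, against 1.92% of all tested genes). None of the 7 passed these limits in KO313 (1.43% of all tested genes) or in both clones combined (1.47%). At the adjusted p alone, limma called 6 and 7 of them there. Between the clones none passed these limits either (0.287%). As ratios of mean RPKM in both clones combined, PLAUR (2.00), PLAT (2.05) and SERPINB2 (2.12) reached 2, and the other members did not. Whether they would pass in DESeq2 was not tested.

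The calls of SERPINB1 in the single clones were less firm. Its limma adjusted p was 0.0269 in KO313 and 0.0380 in KO414. The KO313 call was lost without WT replicate 1 or 3 or KO313 replicate 1, 2 or 4, with limma adjusted p up to 0.0746. The KO414 call was lost without any single WT replicate, without KO313 replicate 2 or 4, or without KO414 replicate 2 or 4, with limma adjusted p up to 0.0985. In both clones combined the call held without each library in turn, with limma adjusted p of at most 0.0439.

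**Figure D2:**
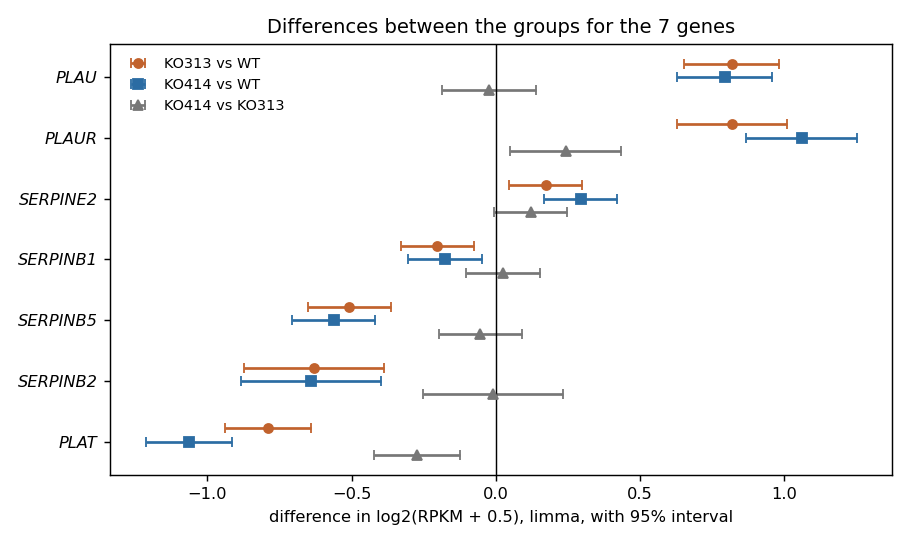
Differences in log2(RPKM + 0.5) (x axis) of the 7 genes (y axis) for KO313 against WT, KO414 against WT and KO414 against KO313. Points are limma estimates and bars are 95% intervals; PLAU and PLAUR lie right of 0 and PLAT, SERPINB2 and SERPINB5 left of 0 in both clones, while PLAT in KO414 against KO313 is at -0.27.

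The clones were compared directly to ask where they differed. None of the 7 genes passed in KO414 against KO313 by limma with adjusted p under 0.05, where 3.36% of all tested genes passed. At an unadjusted p under 0.05, 2 of 7 passed (PLAUR and PLAT), against 11.5% of all tested genes. PLAT was lower in KO414, with a log2 difference of -0.27 (95% interval -0.42 to -0.12, limma adjusted p = 0.0502), and it was the single gene of the 7 whose clones did not overlap, against 8.32% of all tested genes. Without WT replicate 4 the same difference passed (limma adjusted p = 0.0462), and 3 other settings also moved it past the threshold. PLAUR was at 13.7 ± 1.64 RPKM in KO414 and 11.5 ± 1.13 in KO313 (SD, n = 4 each), with a log2 difference of 0.24 (95% interval 0.05 to 0.43, limma adjusted p = 0.239). For PLAU the interval was -0.19 to 0.14, for SERPINE2 -0.01 to 0.25, for SERPINB1 -0.10 to 0.15, for SERPINB2 -0.25 to 0.23 and for SERPINB5 -0.20 to 0.09.

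The order of the 7 genes by RPKM shifted with these changes. In WT it ran from SERPINB5 through PLAU, SERPINE2, SERPINB1, PLAUR and PLAT to SERPINB2, and the libraries of SERPINB1 and PLAUR, and of PLAUR and PLAT, overlapped. In both clones it ran from SERPINB5 through PLAU, SERPINE2, PLAUR, SERPINB1 and PLAT to SERPINB2, and only SERPINE2 and PLAUR overlapped. PLAUR was thus above SERPINB1 in both clones, and PLAT, which overlapped PLAUR in WT, was clear of it.

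Ratios of RPKM within a library compare activators, receptor and inhibitors without dependence on library scaling. Their absolute size is approximate, given the bias of reads along the transcripts and the different gene lengths. The ratio of PLAU to PLAT was 2.40, 2.503, 2.54 and 2.77 in the WT libraries. It was 7.20, 8.83, 8.11 and 9.68 in KO313 and 10.9, 9.73, 11.2 and 9.54 in KO414. The RPKM of PLAU thus exceeded that of PLAT in every library. The mean ratio was 2.55 ± 0.155 in WT, 8.45 ± 1.05 in KO313 and 10.3 ± 0.838 in KO414 (SD, n = 4 each).

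PLAU also gained on the inhibitor SERPINE2. The ratio of PLAU to SERPINE2 was 1.26 ± 0.0963 in WT, 1.98 ± 0.102 in KO313 and 1.79 ± 0.104 in KO414 (SD, n = 4 each). The ratio of PLAU to its receptor PLAUR was 2.39 ± 0.156 in WT, 2.34 ± 0.0551 in KO313 and 1.94 ± 0.150 in KO414, and the KO414 libraries (1.75 to 2.11) lay below those of both other groups. These ratios are descriptions of RNA levels and were not tested.

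**Figure D3:**
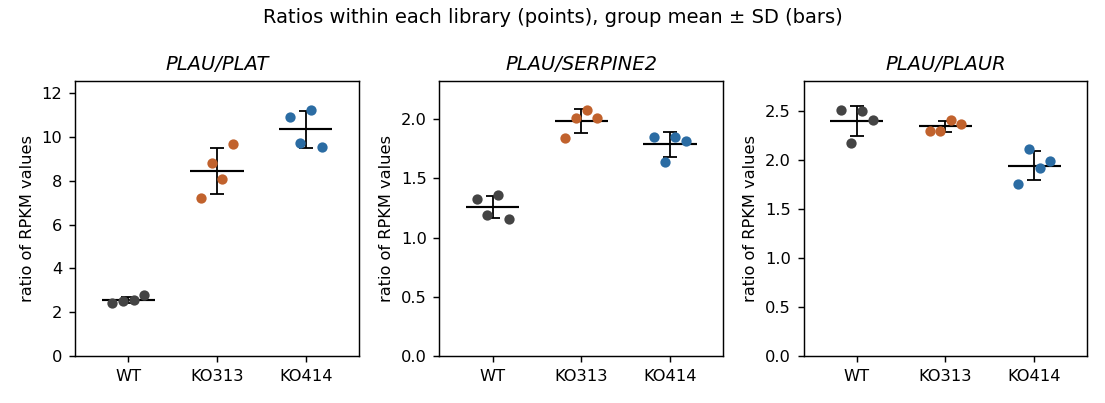
Ratios of RPKM values (y axes, from 0) within each library for PLAU over PLAT, SERPINE2 and PLAUR, by group (x axes). Points are libraries and bars are means with SD over 4 libraries; PLAU over PLAT is 2.40 to 2.77 in WT and 7.20 to 11.2 in the p53_KO libraries, while PLAU over PLAUR is lowest in KO414.

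Further genes of the plasminogen system were described from a list of 29, of which 17 were tested. In p53 KO against WT 2 rose, 3 fell and 12 did not pass, a share near the 29.6% of all tested genes that passed. The median log2 difference was -0.06, against 0.01 for all tested genes. F3 (tissue factor, the cell surface trigger of coagulation) rose from 139.9 ± 8.24 RPKM in WT to 191.5 ± 3.86 in KO313 and 210.0 ± 8.22 in KO414 (SD, n = 4 each, limma adjusted p = 7.05e-06). MST1R, a receptor tyrosine kinase whose ligand is activated by serine proteases, rose from 4.94 to 7.39 and 6.79 RPKM (limma adjusted p = 2.69e-05). THBD (thrombomodulin) fell from 8.28 to 6.81 and 6.86 RPKM (limma adjusted p = 0.00616), and TFPI, an inhibitor of tissue factor, from 2.44 to 2.09 and 1.69 (limma adjusted p = 0.0295). S100A10, part of a plasminogen receptor with ANXA2, went from 457.2 RPKM to 390.9 in KO313 and 407.0 in KO414 (limma adjusted p = 0.0166).

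The transcript of plasminogen itself was hardly present. PLG did not exceed a mean of 0.00532 RPKM in any group, so the activators were expressed in cells with almost no transcript of their substrate. The medium held horse serum, and plasminogen protein was not measured. SERPINI1 (neuroserpin, an inhibitor of tissue plasminogen activator) separated the clones, at 1.53 ± 0.232 RPKM in KO313 and 0.576 ± 0.0755 in KO414 (SD, n = 4 each, limma adjusted p = 6.50e-05), with 1.59 ± 0.187 in WT.

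Of the 13 clade B serpins, 6 were tested. SERPINB7, a serpin of keratinocytes and other epithelia, met the filter through its WT libraries alone, so it had to differ and is described without a test. Its WT mean was 1.48 ± 0.128 RPKM, and its means in KO313 and KO414 were 0.319 ± 0.0303 and 0.336 ± 0.0141 (SD, n = 4 each). Of the 5 others 3 fell in p53 KO against WT, which are the 3 of the set and add nothing to the counts above, and none rose, where 14.0% of all tested genes fell and 15.6% rose. The median log2 difference of the 5 was -0.19, against 0.01 for all tested genes. It is the value of SERPINB1, a gene of the set, so it adds nothing either. SERPINB6 had means of 17.3, 18.6 and 19.6 RPKM in the 3 groups (limma adjusted p = 0.0818), and SERPINB8 had 15.6, 17.99 and 16.9 (limma adjusted p = 0.116).

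Most clade B genes lie side by side on chromosome 18. In the RefSeq order, from SERPINB5 to SERPINB8, this cluster holds 10 of the 13 with HMSD among them, while SERPINB1, SERPINB6 and SERPINB9 are on chromosome 6. On chromosome 18 SERPINB5 and SERPINB2 met the filter and fell. SERPINB7 between them, given without a test, had means of 1.48 RPKM in WT and 0.327 in p53_KO. SERPINB8 at the far end met the filter and did not pass. SERPINB13, singled out after its values were seen and too low to be tested, had a mean of 0.455 RPKM in WT and 0.114 in p53_KO. SERPINB3 and SERPINB4 were at means of at most 0.254 RPKM in every group, and SERPINB11 was listed at 0 in all libraries. The cluster thus held genes that fell, a gene that did not pass and genes that were barely detected. A part of position in the changes was not tested.

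**Figure D4:**
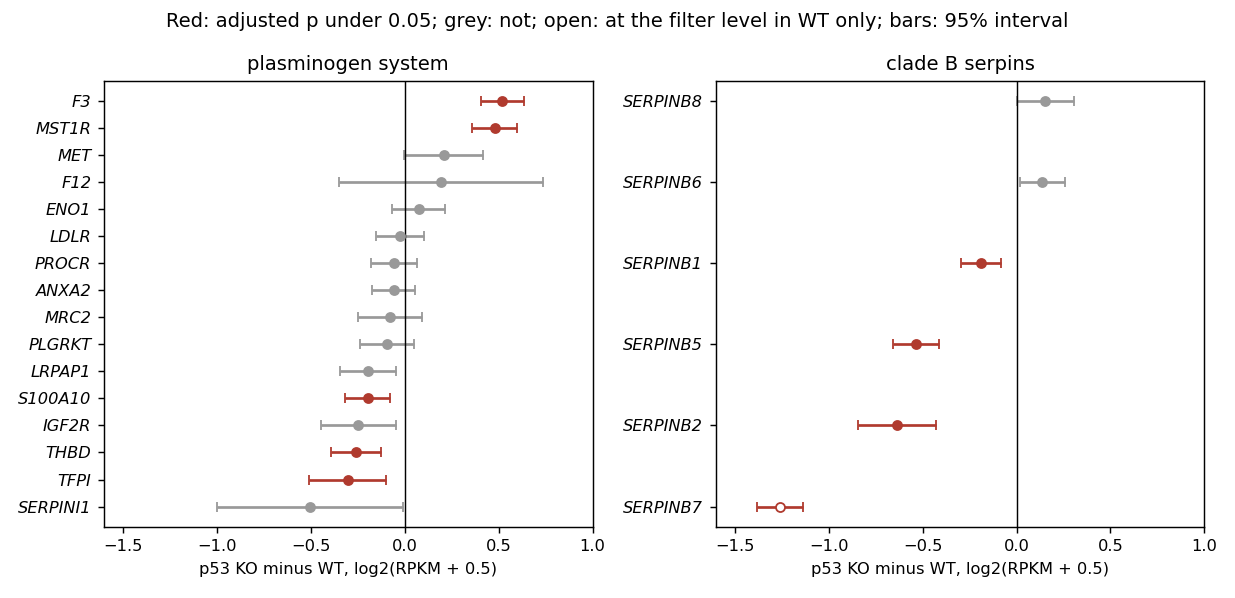
Differences in log2(RPKM + 0.5) between p53_KO and WT (x axes) for 16 tested genes of the plasminogen list (left) and of the clade B serpins (right), with 95% limma intervals. Red marks an adjusted p under 0.05. On the left 2 genes lie to the right of 0 and 3 to the left in red. On the right the filled red points, left of 0, are SERPINB1, SERPINB2 and SERPINB5 of the set. The open point is SERPINB7, which met the filter through WT alone, so it had to differ and its red color is not read as a result.

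Among 21 other serpins 7 were tested. SERPINE2, a gene of the set that adds nothing to the counts above, rose. SERPINA3 (antichymotrypsin) fell from 1.19 RPKM in WT to 0.816 in KO313 and 0.570 in KO414 (limma adjusted p = 0.0261). The other 5 did not pass, a share of calls near the 29.6% of all tested genes that passed. SERPINA1 (antitrypsin) was at 2.46, 2.13 and 1.03 RPKM and differed between the clones (limma adjusted p = 0.00138). Of 32 surface and secreted serine proteases and their Kunitz and Kazal inhibitors 15 met the filter. KLK5 and F2R did so through WT libraries alone, and of the 13 others 3 rose and 4 fell, against 15.6% and 14.0% of all tested genes, with a median log2 difference of -0.09. TFPI2, a secreted Kunitz inhibitor of plasmin, rose from 29.7 ± 1.84 RPKM in WT to 57.7 ± 1.89 in KO313 and 59.6 ± 1.25 in KO414 (SD, n = 4 each, limma adjusted p = 1.12e-09). PI3 (elafin, an elastase inhibitor) rose from 0.970 to 4.26 and 6.15 RPKM (limma adjusted p = 1.08e-06). The kallikrein protease KLK5 had means of 1.01 RPKM in WT and 0.114 in each clone, and F2R, the thrombin receptor PAR1, had 0.628, 0.0462 and 0.0412, both given without a test.

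Of 22 membrane partners of uPAR and related surface proteins 16 were tested. Of these 3 rose and 1 fell, a share near the 29.6% of all tested genes that passed. The median log2 difference was 0.02. ITGA5, the alpha chain of the fibronectin receptor, rose from 14.1 ± 1.02 RPKM in WT to 22.7 ± 2.05 in KO313 and 22.2 ± 1.27 in KO414 (SD, n = 4 each, limma adjusted p = 3.51e-06). ITGA6, a chain of laminin receptors that is also among the basal markers, rose from 78.2 to 97.5 and 105.7 RPKM (limma adjusted p = 0.00905). CD59, a GPI-anchored complement regulator of the same protein family as uPAR, rose from 56.3 to 64.4 and 64.1 RPKM (limma adjusted p = 0.0203). CAV1 (caveolin 1) fell from 336.3 to 272.9 and 259.0 RPKM (limma adjusted p = 0.000214). LYPD6, from the uPAR-related LY6 family, differed between the clones, at 2.01 RPKM in KO313 and 1.04 in KO414 (limma adjusted p = 6.96e-06).

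The genes whose profile over the 12 libraries was most like that of a member were found by Pearson's r of log2(RPKM + 0.5). The 12 libraries form 3 groups, so a high r is partly given by the difference between WT and p53_KO, and r after subtraction of group means is given as well, all as descriptions. Nearest to PLAU was IL6, the inflammatory cytokine, which met the filter through p53_KO libraries alone, with r = 0.99 (0.89 within groups) and means of 0.166, 2.27 and 2.47 RPKM in WT, KO313 and KO414. Nearest to PLAUR were PARP12 (r = 0.99, 0.83 within groups) and GJB2, a gap junction protein (r = 0.99, 0.87 within groups), followed by CXCL1, a neutrophil chemokine (r = 0.98, 0.73 within groups) at 2.54, 9.96 and 14.5 RPKM. PLAU and PLAUR themselves had r = 0.96, and 0.78 within groups. Within groups SERPINB1, which fell where these genes rose, had a similar r with PLAU (0.72) and with PLAUR (0.70), so the likeness within groups was not particular to urokinase and its receptor.

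Nearest to PLAT was ALOX15B, a lipoxygenase, with r = 0.99 (0.72 within groups) and means of 1.73, 0.723 and 0.442 RPKM, which like PLAT were lowest in KO414. PPL (periplakin, a cornified envelope protein) followed, with r = 0.99 but only 0.45 within groups. Nearest to SERPINB5 were PGM2 (r = 0.99, 0.90 within groups) and ZNF561 (r = 0.99, 0.90 within groups), then ABCA12, a lipid transporter of keratinocytes (r = 0.98, 0.85 within groups), at 3.70, 1.18 and 0.977 RPKM. For SERPINE2, SERPINB1 and SERPINB2 the nearest genes were SUPV3L1 (r = 0.96), VPS33B (r = 0.94) and RABL2B (r = 0.95).

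The summed basal markers given above, mostly KRT5 and KRT17, were lower in every p53_KO library than in WT. Within that list KRT5 and KRT17 had means of 1344 and 274.4 RPKM in WT, 1055 and 80.3 in KO313, and 922.2 and 75.4 in KO414. KRT14 and CDH3 also had lower means in both clones. Means were higher in both clones for TP63 (6.30, 9.49 and 8.41), ITGA6 (78.2, 97.5 and 105.7) and ITGB4 (31.7, 37.9 and 32.7). EGFR was at 15.6, 17.5 and 13.7. The part of these markers in the changes of the 7 genes was not tested. CD14, the single immune marker above 1 RPKM, had means of 0.938, 1.80 and 1.51 RPKM in WT, KO313 and KO414, higher in the clones like PLAU and PLAUR. ITGAM (0.235, 0.00232 and 0.00619) and CSF1R (0.595, 0.480 and 0.504) went the other way, and PTPRC and CD3E were at or near 0 in all groups.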

How the data were processed

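RNA from 12 MCF10A libraries (4 each of WT, KO313 and KO414, grouped by the sample labels) was sequenced. The authors deposited RPKM values, 1 column per library. Reads were trimmed with Trimmomatic and the genome build was hg19 per the submitters' processing notes. For the aligner, the counter, the annotation and strandedness the answer is: not given in the sources used here. Reads from genes that overlap, antisense ones included, may therefore be mixed. The labels name an mRNA kit and the methods ribosomal RNA removal. The authors' own test was DESeq2, on both clones together (FDR 0.05, fold change 2).

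The RPKM values of 300 of 300 genes examined were whole numbers divided by gene length and a library total, within 0.001. The totals, 39294810 to 39343011, differed by 0.123%, so these are numbers already scaled between libraries and not read counts; true depth is unknown, no counting intervals are given, and a count test was not applied. Of the entries 4 with repeated symbols were left out.

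Values were used as deposited, as log2(RPKM + 0.5), in genes that reached 0.5 RPKM in 4 or more libraries. Differences were tested in R 4.3.3 by limma 3.58.1, with its trend option and two-sided, with Benjamini-Hochberg adjustment. Combined clones were compared with WT in a model of 2 groups, and single clones in a model of 3 groups. All 7 genes passed the filter, so no permutation test of low genes was needed. Tables were made in Python 3.11.15 (pandas 2.3.3, numpy 2.4.6) and figures with matplotlib 3.10.9. The procedure was tested on simulated data. Alternatives were pseudocounts of 0.1 and 1, no filter, quantile and trimmed-mean scaling, no trend, a replicate block, a model of 3 groups for the combined clones and leaving out each library.

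The 7 genes and all gene lists were chosen with earlier results of these data known. Beyond the 7, the text names the 3 genes of highest r for each (not all printed) and, per list, up to 4 genes of smallest p in p53 KO against WT and up to 2 between the clones. Others are named as singled out or to complete a short count. Some genes are not reported here. Promoter sequences are from RefSeq (GRCh38.p14), since the table gives no coordinates.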

Additional observations from a re-analysis of the deposited data

How the results depend on the processing

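For the 7 genes, 28 differences were recomputed under 20 settings for the combined clones and 19 for each other comparison, and no difference that had passed reversed. In p53 KO against WT all 7 genes passed under every setting. The pseudocount moved the size of SERPINB2 most, from -0.45 with 1 to -0.94 with 0.1. In KO414 against KO313, 1 of the 7 genes (PLAT) passed with a pseudocount of 0.1, with trimmed-mean scaling and without the intensity trend (limma adjusted p = 0.0414, 0.0451 and 0.0406), and leaving out single libraries gave 0 to 1. Leaving out single libraries gave 5 to 7 genes in KO313 against WT and 6 to 7 in KO414 against WT. With the fold cutoff of 2, a pseudocount of 0.1 gave 1 of the 7 genes instead of 0 in p53 KO against WT, and a pseudocount of 1 gave 1 instead of 2 in KO414 against WT.

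Over all genes, KO414 against KO313 gave 411 calls, 701 without the filter, and 270 to 515 when single libraries were left out, with the lowest counts without KO313 replicate 2 (270) and replicate 4 (273). With the fold cutoff, a pseudocount of 0.1 raised the calls from 180 to 273 in p53 KO against WT, from 175 to 269 in KO313 against WT and from 35 to 100 in KO414 against KO313. A pseudocount of 1 lowered them to 109 in KO313 against WT, from 234 to 151 in KO414 against WT and to 14 in KO414 against KO313. The cause was not tested beyond the construction of the pseudocount.

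The repeat numbers were not taken to pair the libraries, since the labels tie them to no batch. The deviations of same-numbered libraries correlated above 0.1 in 6 of 12 pairs. The values ranged from -0.19 to 0.51, against -0.51 to 0.21 for different numbers, and 8 of 12 libraries correlated best with their own number, a hint of pairing from the data and not from the design. With a replicate block the calls were 3466 of 12215 genes in p53 KO against WT, 2544 in KO313, 3517 in KO414 and 355 between the clones, and 7, 6, 7 and 0 of the 7 genes. SERPINB2, at 0.417 to 1.39 RPKM, is the member most limited by low signal.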
